A study of Schizosaccharomyces pombe with 6 samples.

Results

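The genes described here are the 7 named lysine biosynthesis genes of fission yeast (Schizosaccharomyces pombe): lys1, lys2, lys3, lys4, lys7, lys9 and lys12. They were found by exact gene name in the deposited annotation, with non-coding RNAs left out, and are 7 of the 6986 genes in the count table. The deposited product names place each of them in this pathway. The set was chosen by its deletion against wild-type fold changes in these same libraries, so those values are given as a description, with no test.

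Polyadenylated RNA was sequenced from 3 libraries of a duf89 deletion strain (AS2300, genotype h- duf89delta::hygR, the gene replaced by a hygromycin resistance marker) and 3 libraries of a wild-type strain (JS 77, genotype WT). Both strains were grown exponentially at 30 °C in YES, a rich yeast extract medium that is usually supplemented with amino acids, lysine among them. Duf89 belongs to a family of metal-dependent phosphatases thought to remove damaged metabolites. The deletion samples are labelled as biological replicates, whereas the wild-type samples are only numbered and first appeared with an earlier series; preparation and genotype cannot be told apart. Each group is 1 strain.

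Libraries held 18244492 to 21572536 counts. The deleted gene, SPCC1393.13, measured 13.2 ± 3.9 CPM in the deletion and 44.3 ± 2.1 CPM in wild type (SD, n = 3 each). CPM are counts scaled to the library total after TMM scaling. Deletion replicates 1, 2 and 3 still held 229, 234 and 373 counts of this gene. The source of these counts was not tested. Of 6045 genes tested, 3225 were called (53.3%): 1739 higher (28.8%) and 1486 lower (24.6%) in the deletion (edgeR quasi-likelihood test, Benjamini-Hochberg adjusted p below 0.05). The 36 features with mitochondrial identifiers had 0 counts in each deletion library and 851, 1078 and 727 counts in wild type in its 3 libraries. The part of that difference in the results below was not tested. Leaving out mitochondrial and ribosomal RNA genes gave log2 fold changes of -0.49 to -0.24 for the 6 enzyme genes. That refit cannot address how the difference arose, as these mitochondrial features hold few of the counts.

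Fungi make lysine by the aminoadipate route, in contrast to the diaminopimelate route of plants and most bacteria. The first steps lengthen 2-oxoglutarate by 1 carbon in a sequence that mirrors the start of the citric acid cycle and of leucine synthesis: homocitrate synthase (Lys4), homoaconitase (Lys2) and homoisocitrate dehydrogenase (Lys12). A transaminase then makes aminoadipate, which aminoadipate reductase (Lys1) turns into the semialdehyde. Lys1 works only after the phosphopantetheinyl transferase Lys7 has attached its cofactor. The saccharopine reductase Lys9 joins the semialdehyde to glutamate, and the saccharopine dehydrogenase Lys3 releases lysine.

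The 6 genes for enzymes that catalyse a step were each lower in the deletion, by 16.9% for lys2 to 30.3% for lys3, and lys7 differed by less than the spread between libraries. All 7 members passed the filter on low counts. In 6 of them every deletion library lay below every wild-type library. Over all genes tested, 30.4% were separated in that direction and 32.9% in the other. The same 6 members were called lower, against 24.6% of all genes, and 0 members were called higher; since the members were chosen on this contrast, nothing is read from these counts. Their median log2 fold change was -0.45, against 0.00 over all genes tested. As RNA came from whole cultures, fewer cells with a transcript and less transcript per cell cannot be told apart.

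**Figure D1:**
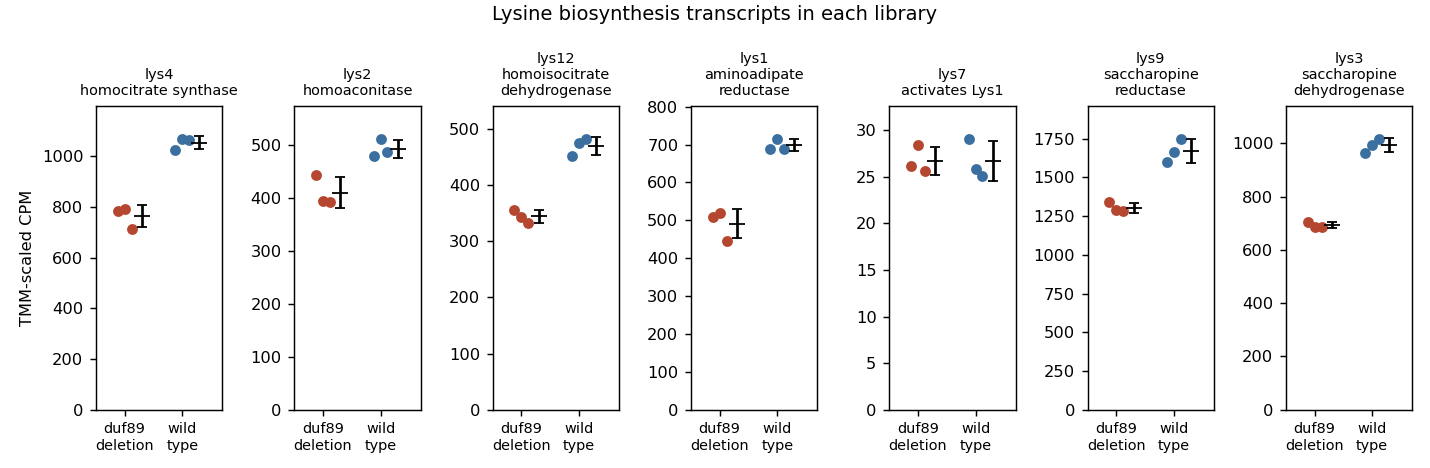
TMM-scaled CPM of the 7 genes, in pathway order from left to right, in each duf89 deletion library (red) and each wild-type library (blue); the bars show the mean and SD of 3 libraries, and each panel has its own axis starting at 0. In all panels except that of lys7 the 3 deletion libraries sit below the 3 wild-type libraries.

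The chain-lengthening steps come first. Homocitrate synthase, which commits carbon to the pathway and is the step that lysine inhibits, is encoded by lys4 (SPBC1105.02c, chromosome II). It measured 785.5, 790.4 and 713.6 CPM in the deletion libraries, against 1024, 1069 and 1065 CPM in wild type. The groups did not overlap, with deletion replicate 3 the lowest, and the log2 fold change was -0.46 (approximate SE 0.05).

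Homoaconitase, an iron-sulfur enzyme that rearranges homocitrate, is encoded by lys2 (SPAC343.16, chromosome I). Its level was 442.5, 394.3 and 390.9 CPM in the deletion libraries and 478.8, 511.5 and 486.6 CPM in wild type. Here the groups came closest among the 6 enzymes, with deletion replicate 1 not far below the wild-type libraries, and the log2 fold change of -0.27 (SE 0.06) was the smallest of the 6.

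Homoisocitrate dehydrogenase, which oxidises and decarboxylates the product of the step before, is encoded by lys12 (SPAC31G5.04, chromosome I). It measured 356.1, 343.5 and 331.9 CPM in the deletion libraries, against 451.7, 474.6 and 482.4 CPM in wild type. The libraries of each group lay close together and the groups did not overlap (log2 fold change -0.45, SE 0.05).

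Reduction of aminoadipate is the work of lys1 (SPAP7G5.04c, chromosome I), whose coding sequence of 4260 bases is the longest of the 7. It had 509.4, 518.6 and 446.3 CPM in the deletion libraries, against 688.7, 715.7 and 688.3 CPM in wild type. All deletion libraries were lower, replicate 3 most so, with a log2 fold change of -0.51 (SE 0.06).

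The gene for its activating enzyme, lys7 (SPAC17C9.02c, chromosome I), did not separate the groups. It measured 26.1, 28.4 and 25.6 CPM in the deletion libraries and 29.1, 25.8 and 25.02 CPM in wild type. The groups overlapped. Its log2 fold change was 0.00 (SE 0.09), with an approximate 95% interval of -0.17 to 0.18.

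For the final steps, lys9 (SPBC3B8.03, chromosome II) had 1339, 1291 and 1281 CPM in the deletion libraries and 1597, 1663 and 1750 CPM in wild type. The groups were separate (log2 fold change -0.36, SE 0.05). The last gene of the route, lys3 (SPAC227.18, chromosome I), had 705.1, 685.5 and 685.4 CPM in the deletion libraries, against 965.3, 993.6 and 1018 CPM in wild type. Its deletion libraries differed little among themselves and lay far below the wild-type libraries, giving the lowest log2 fold change of the 7, -0.52 (SE 0.04).

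In the authors' deposited table the log2 fold change was -0.48 for lys4, -0.29 for lys2, -0.47 for lys12, -0.53 for lys1, -0.02 for lys7, -0.38 for lys9 and -0.54 for lys3. The order of the members in that table was the same as in the refit.

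Together the 7 genes took 0.412 ± 0.008% of all counts in the deletion and 0.527 ± 0.010% in wild type (SD, n = 3 each). This share uses only the library totals and no scaling factor. In the deletion it was 0.419, 0.415 and 0.403% in the 3 libraries, and in wild type 0.519, 0.525 and 0.538%, so the groups did not overlap.

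The members also differed greatly in level. Per kilobase of exon, lys9 was the most abundant, with 843.2 ± 20.2 CPM per kb in the deletion and 1080 ± 49.7 CPM per kb in wild type (SD, n = 3 each). It ranked 181 in the deletion and 158 in wild type among 4957 tested protein-coding genes. Next came lys4, at 414.5 ± 23.4 CPM per kb in the deletion and 572.0 ± 13.5 CPM per kb in wild type, and lys3, at 406.3 ± 6.7 and 582.6 ± 15.4 CPM per kb in the same groups. The library values of lys3 and lys4 overlapped in both groups, so their order is not settled.

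Below them lay lys12, with 231.1 ± 8.1 CPM per kb in the deletion and 315.6 ± 10.7 CPM per kb in wild type, and lys2, with 176.6 ± 12.5 CPM per kb in the deletion and 212.5 ± 7.4 CPM per kb in wild type. The reductase gene lys1 had 112.3 ± 9.0 CPM per kb in the deletion and 159.5 ± 3.6 CPM per kb in wild type. Far below the enzymes, lys7 had 19.5 ± 1.1 CPM per kb in the deletion and 19.4 ± 1.6 CPM per kb in wild type. Except for lys3 and lys4, neighbours in this order did not overlap in either group. The reductase that needs activation was thus several times as abundant in transcript as its activator in both groups.

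**Figure D2:**
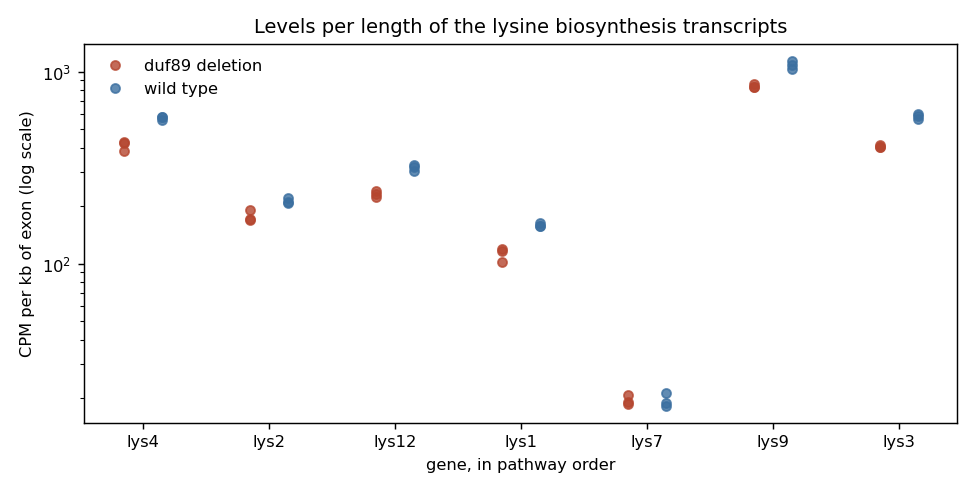
Levels in TMM-scaled CPM per kilobase of exon (log axis) of each gene in pathway order, with 1 point per library for the duf89 deletion (red) and wild type (blue). Levels run from about 19 CPM per kb for lys7 to 843 (deletion) and 1080 (wild type) CPM per kb for lys9.

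Ratios of 2 genes within a library do not depend on the scaling factor of that library. Of the 15 pairs that leave lys7 out, 8 had overlapping log2 ratios in the 2 groups, and 7 did not overlap. For all pairs of tested protein-coding genes, 62.7% did not overlap. The ratio of lys1 to lys4 differed by -0.04 between the groups on the log2 scale and that of lys4 to lys12 by -0.02. By contrast lys2 stood higher relative to lys3, by 0.25, and to lys4, by 0.20, in the deletion than in wild type. Of the 6 pairs with lys7, 5 did not overlap; the exception was lys2 with lys7.

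Fold change also ran with transcript level across the genome, and the part of this trend in the members' values was not tested. When tested protein-coding genes were split into 8 bins by mean count, the highest bin, which holds the 6 enzyme genes, had a median log2 fold change of -0.17, with 369 of 620 genes called lower and 52 higher. The second-lowest bin, which holds lys7, had a median of 0.33, with 362 of 620 called higher. Cyclic loess offsets, which remove a trend of the fold change with level, brought the members closer together. Under them lys3 measured -0.35, lys1 -0.35, lys12 -0.31, lys4 -0.30, lys7 -0.26, lys9 -0.18 and lys2 -0.12, and lys2 was no longer called lower. There lys7 (SE 0.11) lay among the enzyme genes but, like lys2, was not called. With total counts in place of scaling factors, lys7 measured 0.07 and the enzymes -0.45 to -0.20.

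**Figure D3:**
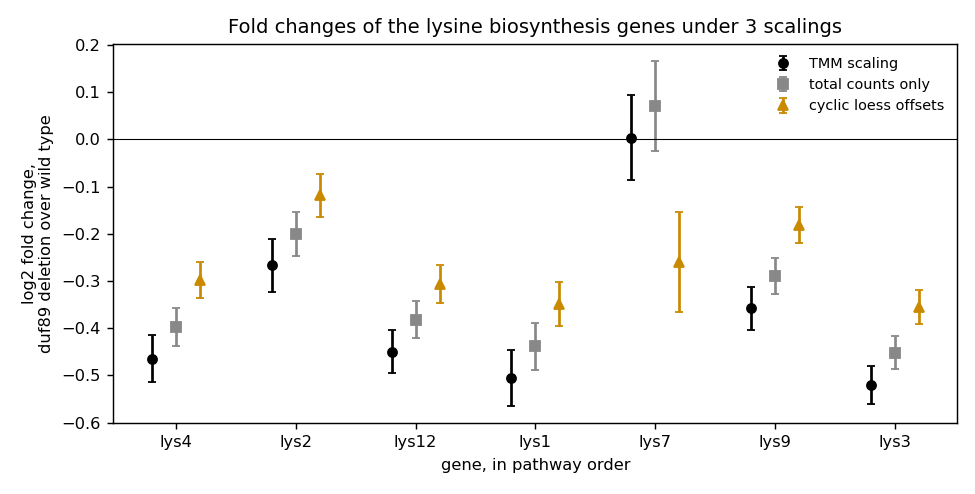
Log2 fold change, duf89 deletion over wild type, of each gene in pathway order under TMM scaling (black circles), total counts alone (grey squares) and cyclic loess offsets (orange triangles); bars are standard errors. The 6 enzyme genes stay below 0 under all 3, and lys7 is at 0.00, 0.07 and -0.26.

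**Figure D4:**
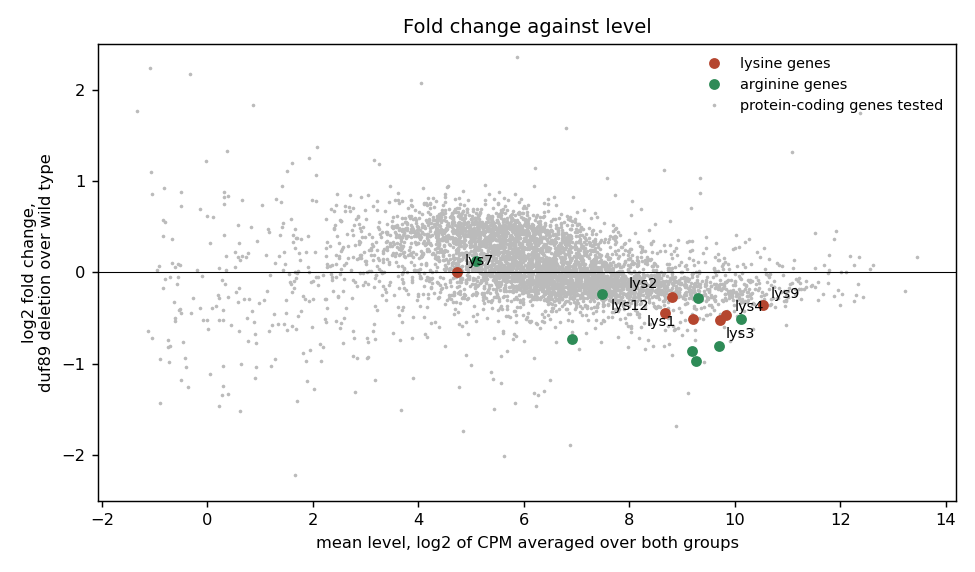
Log2 fold change, duf89 deletion over wild type, against the log2 of mean CPM for tested protein-coding genes (grey), the lysine genes (red, named) and the arginine genes (green); 4 coding genes lie outside the vertical range of ±2.5. The grey cloud slopes downwards to the right, and the 6 enzyme genes lie below -0.17, the median of the highest bin by mean count.

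Neighbouring genes were looked at after the members' values were known. Of the 14 features directly beside the members 13 could be tested. Among these 3 were higher and 1 lower in the deletion, against 28.8% higher and 24.6% lower over all genes tested. The eIF4G gene tif471, next to lys7, rose (log2 fold change 0.39, SE 0.06, adjusted p = 0.00086), as did tit1, for a tRNA-modifying enzyme next to lys2 (0.39, SE 0.07, adjusted p = 0.0020), and mrpl1601, for a mitochondrial ribosomal protein, next to lys4 (0.43, SE 0.08, adjusted p = 0.0018). The ribosomal protein gene rps1101 beside lys12 fell (-0.31, SE 0.05, adjusted p = 0.00092). In the RefSeq annotation every member overlaps at least 1 other feature. The transcript of lys1 overlaps that of prm1, for a conjugation protein, on the opposite strand; prm1 measured 43.5 CPM in the deletion and 38.2 CPM in wild type (log2 fold change 0.19, adjusted p = 0.083). On the opposite strand of lys2 lies wdr70, which is not among the 14 and was higher (26.6 CPM in the deletion and 21.6 CPM in wild type, log2 fold change 0.30, SE 0.11, adjusted p = 0.035), with overlapping libraries. On the same strand, lys4 overlaps mrpl1601 and lys7 overlaps nuc2. The kit keeps the strand, but no source used here states how strand was treated in counting, and reads in the shared stretches are therefore uncertain. The antisense RNA of lys9, SPBC3B8.03-antisense-1, had 7.95 CPM in the deletion and 12.6 CPM in wild type, far under lys9 itself. Opposite lys12, SPNCRNA.870 had 1.39 CPM in the deletion and 8.60 CPM in wild type (log2 fold change -2.63, SE 1.23). Neither of these RNAs was called.

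Other genes listed beside the route changed in part. They encode a transaminase, a saccharopine oxidase, lysyl-tRNA ligases and a fatty acid synthase subunit. The list holds 5 genes, of which 1 was higher and 1 lower, against 28.8% higher and 24.6% lower over all genes tested. The predicted aminoadipate transaminase gene SPAC6B12.04c, for the step between Lys12 and Lys1, measured -0.06 (SE 0.06, adjusted p = 0.39), and fap2, for a saccharopine oxidase, 0.01 (SE 0.06, adjusted p = 0.86). Neither passed the test. The cytoplasmic lysyl-tRNA ligase gene krs1 fell by 0.18 (SE 0.04, adjusted p = 0.0052), to 766.3 ± 26.6 CPM in the deletion, against 870.0 ± 8.8 CPM in wild type, but not with cyclic loess offsets (-0.02, adjusted p = 0.68). The mitochondrial lysyl-tRNA ligase gene SPCC18.08 rose (0.47, SE 0.09, adjusted p = 0.0022). The fatty acid synthase subunit gene fas2, whose product also carries phosphopantetheine, measured -0.13 (adjusted p = 0.077). It was called lower with DESeq2 (adjusted p = 0.043), with protein-coding genes alone (adjusted p = 0.033) and without wild-type replicate 3 (adjusted p = 0.044), which makes 2 genes of this list lower.

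Enzymes that carry out the parallel chemistry in leucine synthesis were lower as well. All 4 genes of that list were called lower, against 24.6% of all genes tested; the 4 belong to the most abundant bin of coding genes, where 59.5% were called lower. They were leu1, for isopropylmalate dehydrogenase and the counterpart of Lys12 (-0.39, SE 0.05, adjusted p = 0.00042), leu3, for isopropylmalate synthase and the counterpart of Lys4 (-0.34, SE 0.05, adjusted p = 0.00078), leu2, for the dehydratase that matches Lys2 (-0.19, SE 0.04, adjusted p = 0.0030), and the aminotransferase gene eca39 (-0.37, SE 0.05, adjusted p = 0.00042). The call of leu2 was lost with cyclic loess offsets (-0.02, adjusted p = 0.58). In the citric acid cycle 3 of the 4 genes reported fell, against 24.6% lower over all genes tested. Of these, cit1 and aco1 belong to the most abundant bin of coding genes, where 59.5% were called lower. Citrate synthase cit1 measured 457.4 ± 43.0 CPM in the deletion and 762.6 ± 24.6 CPM in wild type (-0.74, SE 0.06, adjusted p = 4.0e-05), aconitase aco1 fell (-0.41, SE 0.05, adjusted p = 0.00028) and the isocitrate dehydrogenase subunit gene idh2 fell (-0.31, SE 0.05, adjusted p = 0.00074). Its partner idh1 measured -0.01 (SE 0.05, adjusted p = 0.85) and did not pass the test.

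Genes of amino acid uptake and storage were mostly lower: 8 of 11 fell and 1 rose, against 24.6% lower and 28.8% higher over all genes tested. The list is not limited to lysine transport and includes a proline permease and an adaptor. With cyclic loess offsets 10 were lower and 0 higher. The arginine and lysine transporter gene cat1 had 206.1 ± 15.7 CPM in the deletion and 265.7 ± 8.7 CPM in wild type (-0.37, SE 0.06, adjusted p = 0.0011). Another transporter gene for the same amino acids, can1, fell (-0.20, SE 0.04, adjusted p = 0.0044). So did SPAC2E12.03c, predicted to encode a basic amino acid transporter (-0.56, SE 0.10, adjusted p = 0.0016). The arrestin-related adaptor gene any1 (-0.43, SE 0.08, adjusted p = 0.0017) and the vacuolar transporter gene stm1 (-0.79, SE 0.05, adjusted p = 2.7e-06) fell too. The permease genes isp5 (-0.71, SE 0.13, adjusted p = 0.0020) and per1 (-0.33, SE 0.07, adjusted p = 0.0049) were lower as well. The call of aat1 (-0.21, SE 0.07, adjusted p = 0.028) was lost with total counts, with mitochondrial and ribosomal RNA genes left out (-0.18, adjusted p = 0.054), and without any single library except deletion replicate 2 or wild-type replicate 2. The proline permease gene put4 (-0.06) and the vacuolar transporter gene fnx2 (-0.03) did not pass the test, but both were called lower with cyclic loess offsets (put4 -0.26, adjusted p = 0.0085; fnx2 -0.20, adjusted p = 0.031). The vacuolar transporter gene fnx1, whose product takes up lysine among other amino acids, rose (0.18, SE 0.06, adjusted p = 0.042). That call was lost when any library except deletion replicate 3 was left out, with values of 0.15 to 0.19, and also with DESeq2 (0.17) and cyclic loess offsets (0.04).

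In the list of amino acid control factors 4 of 10 fell and 0 rose, against 24.6% lower and 28.8% higher over all genes tested. The list is not limited to the amino acid starvation response and includes the stress factor gene atf1. The gene gcn20 (0.09, adjusted p = 0.11) was called higher with total counts (0.16, adjusted p = 0.015). So it was with mitochondrial and ribosomal RNA genes left out (adjusted p = 0.046) and without deletion replicate 3 (adjusted p = 0.036). With cyclic loess offsets 3 were lower, among them the eIF2 kinase gene hri1 (-0.34, adjusted p = 0.0050, against -0.08 with TMM scaling), and cpc2, for the RACK1 ortholog, was higher (0.17, adjusted p = 0.0053, against -0.01). The GATA-type factor gene fil1, which has the role in this yeast that Gcn4 has in budding yeast, measured 343.0 ± 31.2 CPM in the deletion and 376.7 ± 29.1 CPM in wild type, and the groups overlapped (-0.14, SE 0.07, adjusted p = 0.15). The eIF2 kinase gene gcn2 measured 0.08 (adjusted p = 0.27). The gene for the target of Gcn2, the eIF2 alpha subunit gene tif211, fell (-0.21, SE 0.04, adjusted p = 0.0037), though not with cyclic loess offsets (-0.07, adjusted p = 0.19). The stress factor gene atf1 fell (-0.43, SE 0.07, adjusted p = 0.0012). The other calls were gcn1 (-0.15, SE 0.04, adjusted p = 0.014) and pcr1 (-0.19, SE 0.05, adjusted p = 0.014). Both were lost with total counts, without wild-type replicate 2 and without deletion replicate 3; gcn1 was also lost without deletion replicate 1 and with cyclic loess offsets. The number lower was 2 without either of these 2 libraries and with total counts.

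Arginine, like lysine, is a basic amino acid made from glutamate or its precursor. Of 8 arginine genes 7 fell, against 24.6% lower over all genes tested. Among them arg1, arg4, arg5, arg11 and arg12 belong to the most abundant bin of coding genes, where 59.5% were called lower. The median log2 fold change of the 8 arginine genes was -0.62, beside -0.45 for the lysine genes. The difference between the lists was not tested. Argininosuccinate synthase arg12 had 414.2 ± 15.2 CPM in the deletion and 814.3 ± 50.9 CPM in wild type (-0.98, SE 0.05, adjusted p = 2.3e-06), and the carbamoyl-phosphate synthase subunit gene arg5 had 413.7 ± 23.7 CPM in the deletion and 753.9 ± 22.6 CPM in wild type (-0.87, SE 0.05, adjusted p = 3.3e-06). Among 31 genes for other amino acids 17 fell and 3 rose (median -0.13), against 24.6% lower and 28.8% higher over all genes tested. In the most abundant bin of coding genes, which holds some of them, 59.5% were lower and 8.4% higher (median -0.17). In the list of other amino acids the largest falls were in gdh1, for glutamate dehydrogenase (-0.81, SE 0.07, adjusted p = 3.5e-05), and the histidine gene his2 (-0.63, SE 0.04, adjusted p = 5.6e-06). The largest rises were in the tyrosine gene tyr1 (0.55, SE 0.09, adjusted p = 0.0012) and the proline gene pro2 (0.29, SE 0.05, adjusted p = 0.0021). In this list 7 rose with total counts and with cyclic loess offsets.

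**Figure D5:**
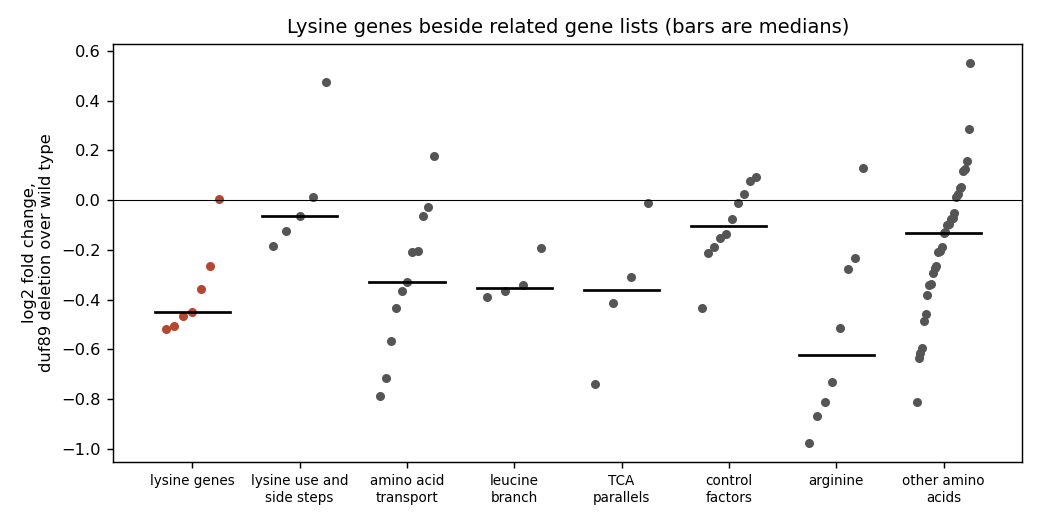
Log2 fold change, duf89 deletion over wild type, of each gene in the 7 lysine genes (red) and in 7 related lists (grey), with each list's median as a bar. Medians run from -0.62 for the arginine genes to -0.06 for the list labelled lysine use and side steps. That list includes fas2. The lysine genes are at -0.45.

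The gene whose pattern over the 6 libraries was most like that of lys3, the member with the largest change, was acl1 (Pearson r 0.9997 of log2 CPM), for a subunit of the ATP citrate synthase that makes acetyl-CoA. It was followed by hsp10, for the mitochondrial co-chaperonin (0.9996), SPBC543.08 (0.9985), rps2201, for a ribosomal protein (0.9985), and mug95-antisense-1 (0.9984). Of all genes compared, 101 of 5527 reached at least 0.99 with lys3. Among the members lys12 reached 0.995, lys9 0.9903, lys4 0.982, lys1 0.964, lys2 0.922 and lys7 -0.11. These correlations describe 6 libraries in 2 groups and carry no test.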

How the data were processed

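Raw read counts per gene were used as deposited. Tools listed in the submitters' processing notes are HTSeq 0.10.0, HISAT2 2.1.0, DESeq, DESeq2 and SAMtools, with build ASM294v2 and no roles given. A second deposited table holds the authors' own comparison, with a log2 fold change, its standard error, a test score, a p-value, and average signal (normalized counts), per the file headers; only its log2 fold changes are quoted. Counts were refitted with edgeR 4.0.16 in R 4.3.3 (genes kept by filterByExpr at minimum count 10; TMM scaling; a quasi-likelihood F test of group alone; Benjamini-Hochberg over 6045 genes, called at 0.05). Of 6987 lines, 2 with one identifier were summed, giving 6986 genes, of which 6833 matched RefSeq ASM294v3. That assembly is not the one in the notes, so it gave names, neighbours, overlaps and exon lengths, and no coordinates or sequences are printed. SE is the log2 fold change over the square root of F. CPM uses TMM-scaled totals.

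The members and lists were chosen with earlier results of these data known. Genes named are all members, measured genes of 5 short lists, the 2 largest called changes in each direction in the arginine and other amino acid lists, and the 5 genes most like the member with the largest change (mean count of at least 50). From the list of other lysine genes acp1, lsd1 and ppt1 were removed on their annotated products, since these symbols belong to genes of other function in this species; as fixed, the list had 8 genes, 2 higher and 1 lower (median -0.02). From the citric acid cycle list 1 gene is not reported here and was left out of the counts. Alternatives were DESeq2 1.42.0, limma-voom 3.58.1, other scalings, filters and feature sets, a threshold of 0.01, leaving out single libraries, and a replicate block. The p-values measure the spread between libraries, which in wild type may be technical. Figures used matplotlib 3.10.9.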

Additional observations from a re-analysis of the deposited data

How the results depend on the processing

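None of the 6 enzyme genes among the members changed direction under the alternatives run. Of 119 member values 109 moved by less than the SD between replicates. The other 10 were those of all 7 members with cyclic loess offsets and of lys3, lys9 and lys12 with total counts. All 6 enzyme genes stayed called lower except with cyclic loess offsets, where 5 did and the median of the 7 members was -0.30; leaving out a library gave medians of -0.48 to -0.39. At an adjusted p below 0.01, 1152 genes were higher and 932 lower. Leaving out a library gave 1324 to 1763 higher and 1077 to 1384 lower. Over all related lists together 44 of 76 genes were lower and 6 higher, with the list of other lysine genes at its 8 genes. Over all genes tested 24.6% were lower and 28.8% higher. The lists had 39 to 46 genes lower across alternatives, but 13 higher with total counts and 11 with cyclic loess offsets. Without single libraries 4 to 8 of their genes were higher and 40 to 43 lower. With cyclic loess offsets cpc2 turned to 0.17, met14 to 0.0102 and met6 to 0.0237; the cause was not tested. The value of lys7 ran from -0.26 to 0.07. Per base of coding sequence in place of exon, the highest member exceeded the lowest 28.0-fold in the deletion, in place of 43.3-fold, and 36.0-fold in wild type, in place of 55.6-fold. Deviations of same-numbered libraries correlated at r of -0.13, -0.17 and 0.26. So few libraries cannot decide whether the numbers pair them. With the replicate block 6 members were lower and the median of the 7 members was -0.45. There fas2 (adjusted p = 0.035) and cys12 (adjusted p = 0.048) joined the calls of the lists. The effect of depth was not tested; lys7 had the lowest counts of the members, 473 to 580 per library.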
